A study of Sus scrofa with 12 samples.

Results

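The 4 genes of the ID family (*ID1*, *ID2*, *ID3* and *ID4*) and 6 genes of BMP signalling (*BMP2*, *BMP4*, *BMP6*, *SMAD6*, *SMAD7* and *BMPR1A*) were followed in Semimembranosus muscle, a large muscle of the ham, of 12 Italian Large White pigs. The members were found by matching the Ensembl identifiers of the deposited counts to the pig gene names. All 10 symbols had a row among the 25880 genes listed, of which 20341 had at least 1 count, and all 10 passed the filter on low counts that left 14262 genes for testing. RNA sequencing had been carried out on 6 pigs with high intramuscular fat (IMF), numbered 1 to 6, and 6 pigs with low IMF, numbered 7 to 12, with 3 gilts and 3 barrows labelled in each group and ages of 234 to 244 days in the high and 229 to 249 days in the low IMF group. All pigs were purebred, shared no parent and were kept and fed alike. They were picked as the extremes of a larger population for IMF, so the groups describe its ends and not its middle, and each library is the bulk RNA of 1 animal's muscle. In such samples fewer cells of a type and less RNA per cell cannot be told apart.

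The ID proteins (inhibitors of DNA binding) have a helix-loop-helix but no basic region that touches DNA. They pair with the E proteins *TCF3*, *TCF4* and *TCF12*, which are then not free to bind DNA together with muscle regulators such as *MYOD1*. BMP ligands are secreted factors of the TGF-beta superfamily that bring together type I receptors, such as that encoded by *BMPR1A*, and type II receptors, whose kinase activity leads to phosphorylation of SMAD1, SMAD5 and SMAD9. These join SMAD4 and act in the nucleus on target genes, of which the ID genes are the best known, and the inhibitory *SMAD6* and *SMAD7* are also targets and dampen the signal. In muscle and adipose tissue the pathway is known for holding back the differentiation of muscle precursors and for helping to commit mesenchymal cells to the fat lineage.

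Before the results, 1 property of the libraries has to be given. In 6 of the 12 pigs the counts of the Y-linked genes *EIF1AY* and *KDM5D* went against the labelled sex, in pigs 3 and 5 of the high and pigs 7, 8, 9 and 10 of the low IMF group. The Y counts were 0 to 6 in 6 pigs and 3734 to 5601 in the other 6. The latter were pigs 3, 4 and 6 of the high and pigs 9, 10 and 11 of the low IMF group, as many in each group as labelled barrows. Whether the sex labels or the libraries were exchanged was not tested. An exchange of libraries between pigs could also have placed some of them in the wrong IMF group. For this reason comparisons are also given for the 6 pigs whose Y counts went with the label, 4 with high and 2 with low IMF. A match on sex does not show that the group is right, because an exchange between pigs of the same sex would leave it unchanged. These 6 pigs are thus not a set with a checked group, and only 2 of them have low IMF. The libraries held between 131048805 and 178013997 counts. The muscle label was checked with genes of the muscle fibre: the 7 genes with an identifier, of 12 listed, summed to 55619 to 75820 CPM (counts scaled to the normalised size of each library) in the high and 61942 to 91892 CPM in the low IMF group, led by *NEB*, which encodes nebulin and held 30.1% of that sum.

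The ID genes lie on 4 different chromosomes. On Sscrofa11.1, with RefSeq positions, *ID1* (ENSSSCG00000037016) spans chr17:35316518-35317742 on the plus strand, *ID2* (ENSSSCG00000008645) spans chr3:127500759-127503207 on the minus strand, *ID3* (ENSSSCG00000039514) spans chr6:81422541-81424169 on the minus strand and *ID4* (ENSSSCG00000024312) spans chr7:15281535-15284895 on the plus strand. No other RefSeq gene overlaps any of these 4 spans. The 300 bases before each annotated start are shown as a description, and sequence farther from the start was not searched. Whether these bases bear on how the 4 genes varied among the pigs was not tested. Capitals mark matches on either strand to GGCGCC, a GC-rich motif bound by the BMP SMADs, to GTCT, the SMAD box, to TATAAA, the core of the TATA box, and to CCAAT. The windows are chr17:35316218-35316517 for *ID1*, chr3:127503208-127503507 for *ID2*, chr6:81424170-81424469 for *ID3* and chr7:15281235-15281534 for *ID4*, each read 5′ to 3′ on the strand of its gene.
ID1: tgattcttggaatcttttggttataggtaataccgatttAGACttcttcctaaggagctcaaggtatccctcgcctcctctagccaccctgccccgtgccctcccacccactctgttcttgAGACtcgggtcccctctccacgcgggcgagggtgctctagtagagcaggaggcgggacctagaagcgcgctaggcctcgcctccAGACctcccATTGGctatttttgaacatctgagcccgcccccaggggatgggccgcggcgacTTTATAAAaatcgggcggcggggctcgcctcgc
ID2: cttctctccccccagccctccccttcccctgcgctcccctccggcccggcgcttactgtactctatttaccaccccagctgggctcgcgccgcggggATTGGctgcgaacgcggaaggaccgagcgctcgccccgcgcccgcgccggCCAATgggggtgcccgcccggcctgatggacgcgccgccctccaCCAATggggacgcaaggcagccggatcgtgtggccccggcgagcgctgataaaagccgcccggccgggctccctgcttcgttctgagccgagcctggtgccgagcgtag
ID3: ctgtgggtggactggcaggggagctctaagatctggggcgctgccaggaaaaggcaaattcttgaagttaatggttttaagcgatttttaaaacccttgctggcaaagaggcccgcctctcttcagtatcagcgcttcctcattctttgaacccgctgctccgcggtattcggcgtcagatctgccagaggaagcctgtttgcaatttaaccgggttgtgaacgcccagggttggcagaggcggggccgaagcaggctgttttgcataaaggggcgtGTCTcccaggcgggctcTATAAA
ID4: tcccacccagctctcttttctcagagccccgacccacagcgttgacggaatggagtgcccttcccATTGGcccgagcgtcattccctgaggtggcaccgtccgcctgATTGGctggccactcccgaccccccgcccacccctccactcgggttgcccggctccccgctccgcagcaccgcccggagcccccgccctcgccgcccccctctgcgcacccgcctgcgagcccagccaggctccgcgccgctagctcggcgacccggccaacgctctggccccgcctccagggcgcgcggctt

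GGCGCC was found in 0 of these 4 windows, against 17.5% of the 19556 RefSeq promoters of the same length. GTCT had 3 matches in the *ID1* window, 1 in that of *ID3* and 0 in those of *ID2* and *ID4*, and 83.7% of all promoters hold it. TATAAA had 2 matches, which overlap each other on opposite strands, before *ID1* and 1 before *ID3*, and 0 before *ID2* and *ID4*, against 11.9% of all promoters. CCAAT had 3 matches before *ID2*, 2 before *ID4*, 1 before *ID1* and 0 before *ID3*, against 35.8% of all promoters. The GC content was 72.7% and 74.0% before *ID2* and *ID4* and 59.3% and 54.3% before *ID1* and *ID3*. A match is a run of letters and not a measured binding site, and the lack of one says only that these letters are not in this window. Among the other members GGCGCC had 2 matches before *BMP2*, 1 before *BMP6* and 2 before *BMPR1A*.

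Levels were compared between genes as CPM per kilobase of RefSeq exon, with the reservation that reads had been counted on Ensembl gene models. On this scale *ID3* was the highest member, with a mean over the 12 pigs of 12.4 and a range of 9.49 to 17.1, and *BMPR1A* was next with 11.8 and a range of 9.53 to 15.3, which overlaps it. *ID1* (4.24, 3.03 to 6.23), *ID2* (3.91, 2.31 to 9.25) and *ID4* (2.58, 0.70 to 5.93) followed and overlapped among themselves. *BMP4* (0.954), *SMAD7* (0.897), *BMP6* (0.739) and *BMP2* (0.364) were lower, each overlapping its neighbour in this order. *SMAD6* was the lowest, at 0.0923 per kilobase with a highest pig of 0.152, below every pig's *BMP2*, and rested on 55 to 152 counts a pig. *ID4* varied most among the pigs, with a coefficient of variation of 65.7% and a highest pig 8.47 times the lowest, and *BMPR1A* varied least, with 13.3% and 1.61 times.

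The first comparison was that of low against high IMF, with log2FC given as low over high so that a negative value means a higher level in high IMF pigs. *ID4*, *ID2* and *ID3* had lower values in low IMF pigs at an unadjusted p under the 0.05 threshold, whereas *ID1* and the 6 BMP members did not pass it. By the quasi-likelihood test of edgeR no member passed after adjustment over all 14262 genes. The Wald test of DESeq2, which the study's methods name, passed *ID2* and *ID4*.

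*ID4* is the ID protein best known from neural and testis precursors and as a factor in fat cell differentiation. It ran from 4.20 over a median of 9.37 to 14.4 CPM in the high and from 1.70 over 3.29 to 4.98 CPM in the low IMF group. In 5 high IMF pigs the level was above that of all low IMF pigs. Pig 2 was the exception and lay below low IMF pigs 10 and 11, at 4.89 and 4.98 CPM. The means were 9.14 ± 3.84 and 3.34 ± 1.41 CPM (SD, n = 6 each), and the log2FC was -1.45 with a standard error of 0.34, a 2.74-fold higher level in high IMF. The quasi-likelihood test gave p = 0.000753 and an adjusted p of 0.276, the exact permutation test on log2 CPM gave two-sided p = 0.00866, and DESeq2's adjusted p was 0.0058.

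*ID2* is widely expressed and is known from lymphoid cells, fat and the control of the cell cycle. It ran from 4.48 over a median of 5.67 to 11.9 CPM in the high and from 2.96 over 3.58 to 3.96 CPM in the low IMF group. Its groups were apart, with the lowest high IMF pig at 4.48 and the highest low IMF pig at 3.96 CPM. *ID2* was the only one of the 10 members with groups that did not overlap, and 0.4% of all genes tested had all high IMF pigs above all low IMF pigs. The means were 6.55 ± 2.75 and 3.47 ± 0.42 CPM (SD, n = 6 each), and the log2FC was -0.92 with a standard error of 0.22. The quasi-likelihood test gave p = 0.000931 and an adjusted p of 0.282, and the exact permutation p was 0.00216, the smallest that 6 pigs against 6 allow. DESeq2's adjusted p was 0.0208. Pig 6 alone reached 11.9 CPM, and the log2FC without it was -0.66. DESeq2's adjusted p for *ID2* reached 0.0791 without pig 8 and was 0.05 or less in 10 of the 12 fits that left out 1 pig, while that of *ID4* stayed between 0.000225 and 0.0287 in all 12.

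*ID3*, best known from lymphocytes and blood vessels, was split within the high IMF group. It ran from 9.51 over a median of 14.2 to 16.4 CPM there and from 9.08 over 10.3 to 11.8 CPM in the low IMF group. Pigs 2, 3, 4 and 5 lay above all of the low IMF pigs, whereas pigs 1 and 6, the highest for *ID4* and *ID2*, lay within the low IMF range. The means were 13.3 ± 2.84 and 10.4 ± 0.992 CPM (SD, n = 6 each), and the log2FC was -0.36 with a standard error of 0.14. The unadjusted p was 0.024 and the adjusted p 0.441, and the exact permutation p of 0.0541 did not pass.

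*ID1*, the classic read-out gene of BMP signalling, ran from 3.16 over a median of 4.30 to 6.22 CPM in the high and from 3.02 over 3.84 to 5.30 CPM in the low IMF group. The groups overlapped over most of their range. The log2FC was -0.21 with a standard error of 0.18, with an exact permutation p of 0.323 and an adjusted p of 0.709 by the quasi-likelihood test.

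**Figure D1:**
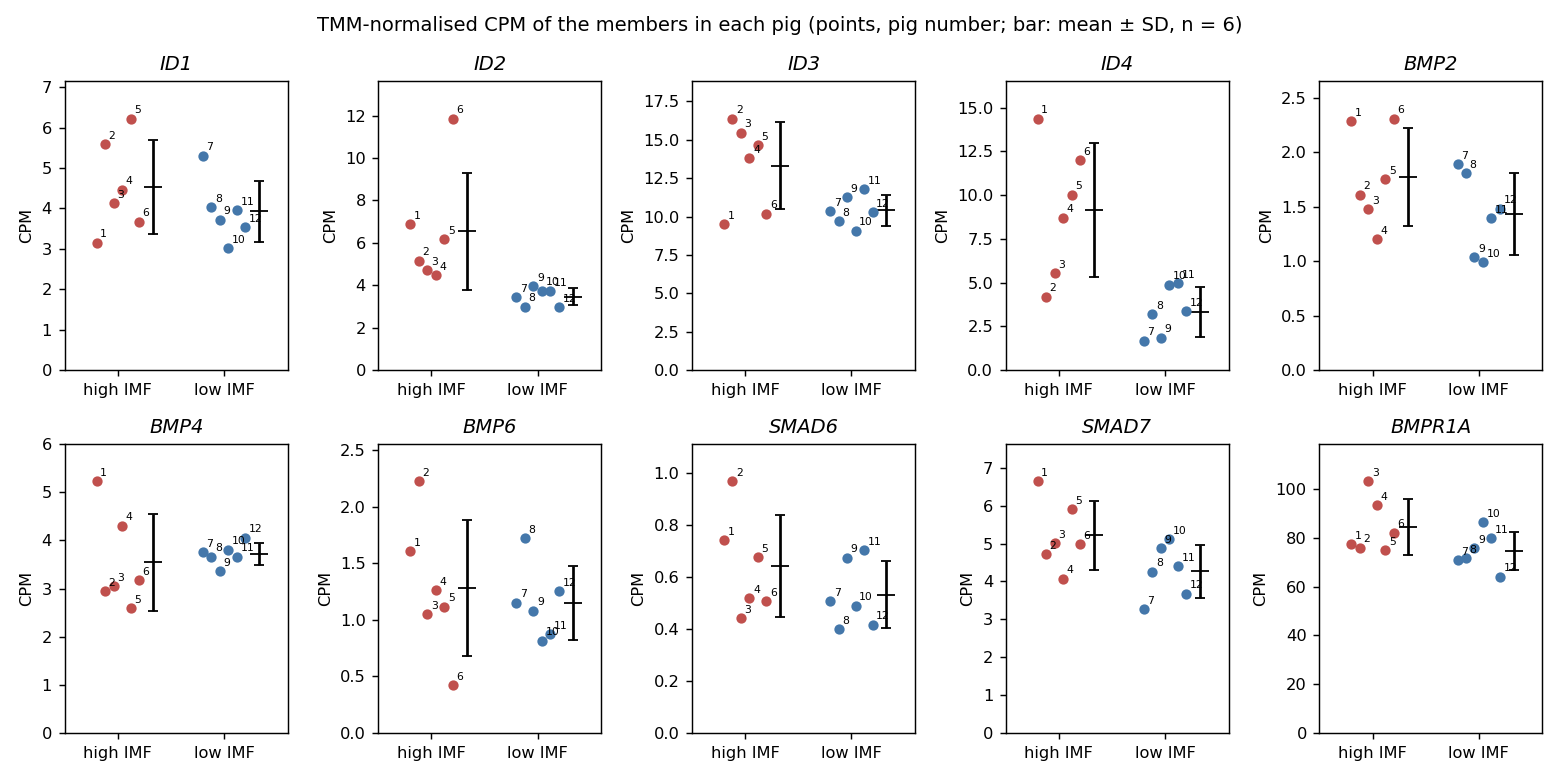
CPM (TMM-normalised, linear axes from 0) of each member in each pig, red for high and blue for low IMF, with the pig number beside each point and the mean ± SD (n = 6) as a bar. *ID2* is the 1 member whose groups do not overlap, pig 6 is highest for it at 11.9 CPM, and pigs 1 and 6 lie high for *ID4* but low for *ID3*.

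The ligands were low in both groups. *BMP2* ran from 1.20 to 2.31 CPM in the high and from 0.991 to 1.89 CPM in the low IMF group, with a log2FC of -0.31 ± 0.22 (SE) and an exact permutation p of 0.184. *BMP4*, a ligand that drives commitment to the fat lineage, ran from 2.59 to 5.23 CPM in the high and from 3.36 to 4.05 CPM in the low IMF group, and it was the 1 member with a positive log2FC, 0.07 ± 0.16 (SE), with an exact permutation p of 0.522. The sign of the *BMP4* value turned without pig 5 and in the 6 pigs with matching Y counts, at -0.011 and -0.013. All low IMF pigs lay inside the range of the high IMF pigs for *BMP4*, whose SD was 1.01 CPM in the high and 0.226 CPM in the low IMF group. *BMP6*, known as a regulator of iron balance, ran from 0.42 to 2.22 CPM in the high and from 0.814 to 1.72 CPM in the low IMF group. Its log2FC of -0.16 ± 0.32 (SE) had an exact permutation p of 0.944 and became 0.074 without pig 2, the highest pig.

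The type I receptor *BMPR1A* ran from 74.9 to 103 CPM in the high and from 64.1 to 86.5 CPM in the low IMF pigs. Its log2FC was -0.18 ± 0.11 (SE), with an exact permutation p of 0.108. Its RefSeq span on chromosome 14 overlaps *MMRN2* on the opposite strand, and the strand setting of the counting is not given in the sources used here. The inhibitory *SMAD7* ran from 4.08 to 6.64 CPM in the high and from 3.26 to 5.11 CPM in the low IMF group, and 5 of 6 high IMF pigs lay above the low IMF median. Its log2FC of -0.29 ± 0.14 (SE) had p = 0.0642 by the quasi-likelihood test and 0.0736 by the exact permutation test. *SMAD6* had 0.441 to 0.968 CPM in the high and 0.40 to 0.702 CPM in the low IMF group, with a log2FC of -0.27 ± 0.25 (SE) and an exact permutation p of 0.264.

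Over the 10 members, 3 had lower values in low IMF at an unadjusted p of 0.05 or less, beside a background of 5.04% of all genes tested for that direction, and 0 had higher ones. At an adjusted p of 0.05 or less the quasi-likelihood test called 0 of 10 members and 0% of all genes, where 1486 genes had an unadjusted p of 0.05 or less. DESeq2's Wald test called 2 of 10 members and 101 genes, 0.605% of the 16685 to which it gave an adjusted p. The paper had already listed these 2, *ID2* and *ID4*, among its differentially expressed genes from the same pigs with DESeq2. These 2 calls are therefore not independent of that result. Of the 10 log2FC, 9 were negative with a median of -0.28, whereas 51.6% of all genes tested had a negative value and their median was -0.01. In the 6 pigs whose Y counts went with the label the quasi-likelihood values were -1.08 for *ID2*, -1.22 for *ID4* and -0.17 for *ID3*, with unadjusted p of 0.0336, 0.0356 and 0.523 and an adjusted p of 0.998 for each.

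The CPM of the 4 ID genes were also added up in each pig as a description. The sum ran from 29.9 to 37.7 CPM in the high and from 19.9 to 24.5 CPM in the low IMF group, without overlap. It holds the differences of *ID2* and *ID4* given above, so it is not a separate result. How often the sum of 4 other genes is without overlap was not determined. Its make-up differed from pig to pig: *ID3* held 27.0% of the sum in pig 6 and 28.0% in pig 1, and 39.5% to 54.1% in the other pigs. *ID4* held 42.4% in pig 1 and 31.8% in pig 6, and 8.16% in pig 7. The sum counts reads, so longer transcripts weigh more in it.

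**Figure D2:**
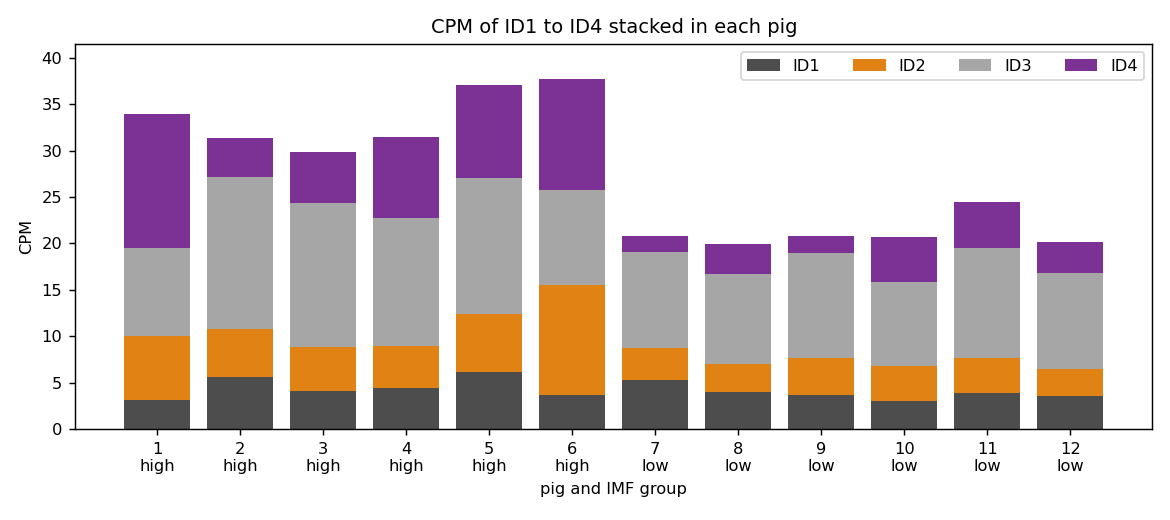
CPM of *ID1*, *ID2*, *ID3* and *ID4* (vertical axis, stacked) in each of the 12 pigs (horizontal axis, with the IMF group). The stacks of the 6 high IMF pigs reach 29.9 to 37.7 CPM and those of the 6 low IMF pigs 19.9 to 24.5 CPM, and the *ID4* and *ID2* layers are thickest in pigs 1 and 6.

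The second question was whether the ID genes moved together over the 12 pigs. The largest r were those of 2 pairs, *ID1* with *ID3* and *ID2* with *ID4*, whereas the 4 pairs across these were near 0. Over 12 pigs Pearson's r of log2 CPM was 0.71 for *ID1* and *ID3* (permutation p = 0.0114, adjusted over 30 pairs 0.148) and Spearman's rho was 0.80 (permutation p = 0.00304, adjusted 0.0606). For *ID2* and *ID4* r was 0.75 (permutation p = 0.00338, adjusted 0.101) and rho was 0.78 (permutation p = 0.00404, adjusted 0.0606). None of the 6 pairs passed after adjustment over the 30 pairs computed. The other 4 pairs had r from -0.12 to 0.14, and the median over the 6 pairs was 0.13.

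Part of these values comes from the difference between the groups, which *ID2* and *ID4* share, so r was taken again after each value was reduced by its group mean. *ID1* and *ID3* kept an r of 0.68 (permutation within groups, p = 0.0396, adjusted 0.428), with 0.81 in the high and 0.34 in the low IMF pigs, and r was 0.47 without pigs 2 and 5, the farthest from the median of *ID1*. *ID2* and *ID4* had a centred r of 0.41 (permutation p = 0.227), with 0.61 in the high and -0.03 in the low IMF pigs, and r over 10 pigs was 0.63 without pigs 1 and 6. The pairs across had negative values after centring: r was -0.62 for *ID3* and *ID4* (permutation p = 0.0386, adjusted 0.428), -0.60 for *ID2* and *ID3*, -0.58 for *ID1* and *ID4* and -0.34 for *ID1* and *ID2*, with a median over all 6 pairs of -0.46. None of the centred values passed after adjustment either. Within the high IMF group *ID3* and *ID4* had an r of -0.87 over 6 pigs, where pigs 1 and 6 were the 2 lowest for *ID3* and the 2 highest for *ID4*, and *ID2* and *ID3* had -0.74. In the low IMF group these values were -0.19 and 0.37, and the difference between the groups was not tested.

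**Figure D3:**
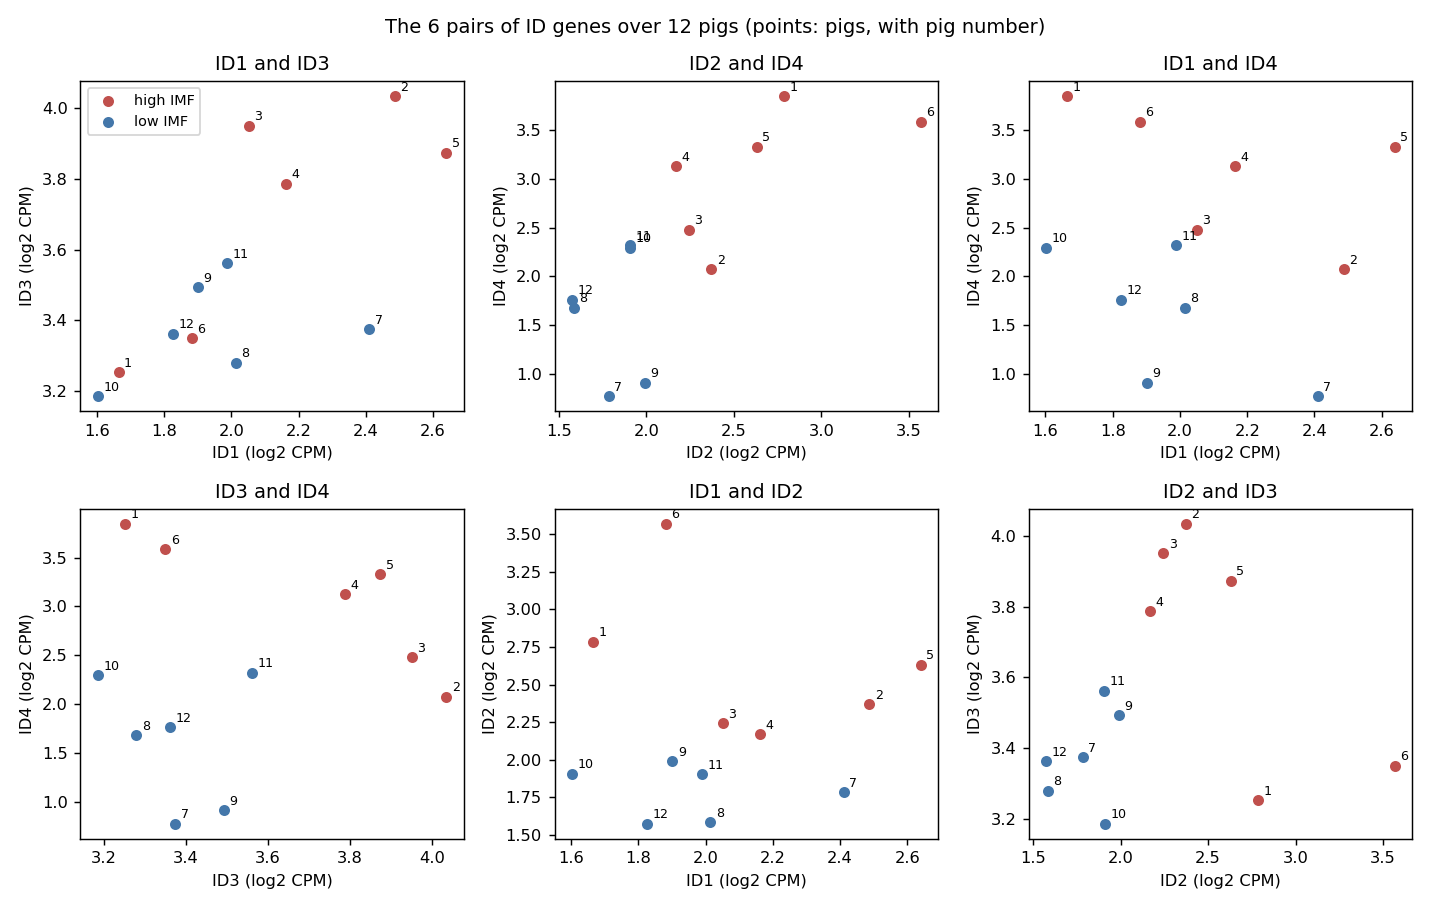
Each panel sets the log2 CPM of 1 ID gene against that of another over the 12 pigs (points with pig number, red for high and blue for low IMF). *ID1* with *ID3* (r = 0.71) and *ID2* with *ID4* (r = 0.75) have the largest r, and in the panel of *ID3* and *ID4* pigs 1 and 6 stand at the upper left within the high IMF group.

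Relative levels within a pig were compared as well. The log2 ratio of *ID4* to *ID1* ran from -0.41 to 2.18 in the high and from -1.64 to 0.69 in the low IMF group, a mean difference of -1.26 (low minus high, exact permutation p = 0.0368, unadjusted for the 4 ratios computed). The ratios of *ID2* to *ID3* (-0.51, exact permutation p = 0.19), *ID4* to *ID2* (-0.61, p = 0.13) and *ID1* to *ID3* (0.14, p = 0.366) did not differ between groups beyond the spread between pigs.

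The third question was whether the ID genes moved with the BMP members. The 24 pairs had a median r of 0.24 over 12 pigs and of 0.060 after centring on group means, and 0 of 24 passed after adjustment with either. The strongest positive values were those of the inhibitory *SMAD7* with *ID4*, at 0.68 (permutation p = 0.0148, adjusted 0.148), and with *ID2*, at 0.61 (permutation p = 0.0379, adjusted 0.194). After centring they were 0.49 and 0.36. The first was 0.35 without pigs 1 and 7, the farthest from the median of *ID4*, and the second was 0.70 without pigs 1 and 6. *SMAD7* with *ID1* and *ID3* had r of -0.19 and 0.09.

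The ligands had no common sign. *BMP4* had a negative value with *ID1*, at r = -0.62 (permutation p = 0.0298, adjusted 0.194), and with *ID3*, at r = -0.60 (permutation p = 0.0389, adjusted 0.194), and these were -0.60 each after centring. Without the 2 pigs farthest from the median of the ID gene they were -0.26 and -0.45, so the first rests in part on pigs 2 and 5. *BMP4* with *ID4* had 0.10. *BMP2* had r of 0.54 with *ID2*, which was 0.03 without pigs 1 and 6, the 2 pigs in which *BMP2* was also highest. Within the groups this r had opposite signs, 0.85 in the high and -0.70 in the low IMF pigs, and the difference was not tested. *BMP6* with *ID2* had -0.45, with a centred r of -0.74 (permutation p = 0.0471, adjusted 0.428). Within the groups their r was -0.74 in the high and -0.78 in the low IMF pigs. Pig 6, the highest for *ID2*, was the lowest for *BMP6*, and without this pig the uncentred r was 0.23. *SMAD6* had r of 0.18 to 0.41 with the 4 ID genes and *BMPR1A* -0.12 to 0.40.

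**Figure D4:**
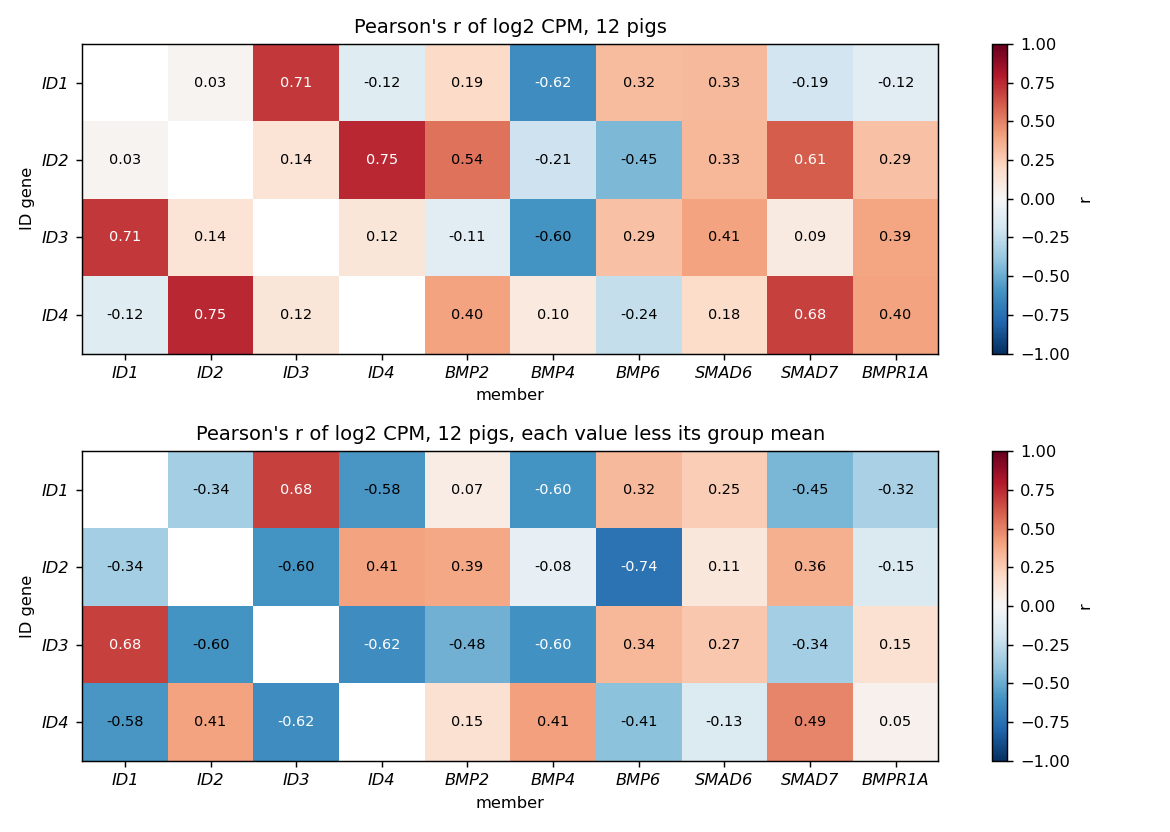
Pearson's r of log2 CPM between each ID gene (rows) and each member (columns), over 12 pigs in the upper panel and after subtracting group means in the lower panel. The pairs *ID1* with *ID3* and *ID2* with *ID4* stay positive in both panels (0.71 and 0.68, and 0.75 and 0.41). The other pairs of ID genes are negative in the lower panel, *ID1* with *ID4* also in the upper, and *BMP4* is negative with *ID1* and *ID3* in both.

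The members were also ranked among all genes by their r with each ID gene, as a description. *ID3* stood at place 68 of 14261 for *ID1*, *ID4* at place 290 for *ID2*, and *SMAD7* at place 348 for *ID4*, while *BMP4* stood above 1.54% of all genes for *ID1*. Across all genes r had a median of -0.01 for *ID1*, 0.01 for *ID2*, -0.0005 for *ID3* and 0.02 for *ID4*. The r that 5% of genes exceeded was 0.50 for *ID1* and *ID3*, 0.64 for *ID2* and 0.61 for *ID4*. For *ID2*, *SMAD7* and *BMP2* lay below it, at places 905 and 1321. The 3 genes most alike over 12 pigs were *SELENBP1* (r = 0.86), *CLTRN* (0.86) and *SLC2A4* (0.85), which encodes the insulin-responsive glucose transporter, for *ID1*. For *ID2* they were *SNORA31* (0.94), *DUSP6* (0.94), which encodes a phosphatase of ERK kinases, and *CYTIP* (0.94). For *ID3* they were *LPCAT2* (0.90), *HACE1* (0.88) and *NODAL* (0.88), another ligand of the TGF-beta superfamily. For *ID4* they were *SAT1* (0.93), the polyamine acetyltransferase, *RGS2* (0.92), a regulator of G protein signalling, and *MNS1* (0.88). The 3 of *ID2* and the 3 of *ID4* all had lower values in low IMF at an unadjusted p of 0.05 or less, with log2FC from -0.54 for *MNS1* to -1.69 for *RGS2*, whereas for *ID1* and *ID3* 0 of 3 did. These genes were ranked over the same 12 pigs, so a difference between groups in the ID gene enters the ranking.

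The rest of the pathway was described from 6 lists holding 61 genes, of which 50 were tested. Apart from *ID2*, *ID3* and *ID4*, 0 of these genes had an unadjusted p of 0.05 or less by the quasi-likelihood test, where 10.4% of all genes tested did. Among the ligands 6 of 13 were tested, with 2 higher in low and 4 higher in high IMF and a median log2FC of -0.19. All 11 receptors and co-receptors were tested, 6 higher in low and 5 in high IMF, with a median of 0.09. The nearest to the threshold there was *RGMB*, a co-receptor, with a log2FC of 0.22 ± 0.11 (SE) and an adjusted p of 0.503, and the abundant *BMPR2*, the type II receptor, had 0.11 ± 0.12 (SE). The 8 SMAD and SMAD ubiquitin ligase genes had a median of -0.16. Of those that carry the signal, *SMAD4* had a log2FC of 0.10 ± 0.17 (SE), *SMAD1* of 0.08 ± 0.17 (SE), *SMAD5* of -0.06 ± 0.17 (SE) and *SMAD9* of -0.33 ± 0.32 (SE), with an adjusted p of 0.749 for *SMAD9*.

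Of the 13 antagonists and modulators 9 were tested, with a median of -0.04. Among the other BMP target genes *HEY1* had 0.21 ± 0.23 (SE), *ATOH8* 0.13 ± 0.30 (SE) and *MSX1* -0.35 ± 0.34 (SE), and *RUNX2*, a bone regulator at 0.133 against 0.0718 CPM, had -0.87 ± 0.42 (SE) with an adjusted p of 0.496. The 7 bHLH genes, the E proteins and muscle regulators with which ID proteins pair or compete, had a median of -0.07: *TCF4* had -0.07 ± 0.12 (SE), *TCF12* -0.16 ± 0.16 (SE) and *MYOD1* -0.01 ± 0.24 (SE). *SOSTDC1*, a secreted BMP antagonist, had too few counts for the filter and is named because of its values, which were seen first. It had counts in 5 of 6 high IMF pigs, with a median of 19.5 and a highest value of 50, and 0 in all 6 low IMF pigs. With counts pooled over each group and a floor of 3 counts set for the low IMF group, the pooled level was 43.6-fold higher in high IMF. This ratio leaves out the spread between pigs, and 1 high IMF pig had 0 counts like the low IMF pigs. DESeq2's adjusted p was 0.000639, and the quasi-likelihood test over all genes with at least 1 count gave an adjusted p of 0.293. As the gene was picked by these values, both are given as a description.

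**Figure D5:**
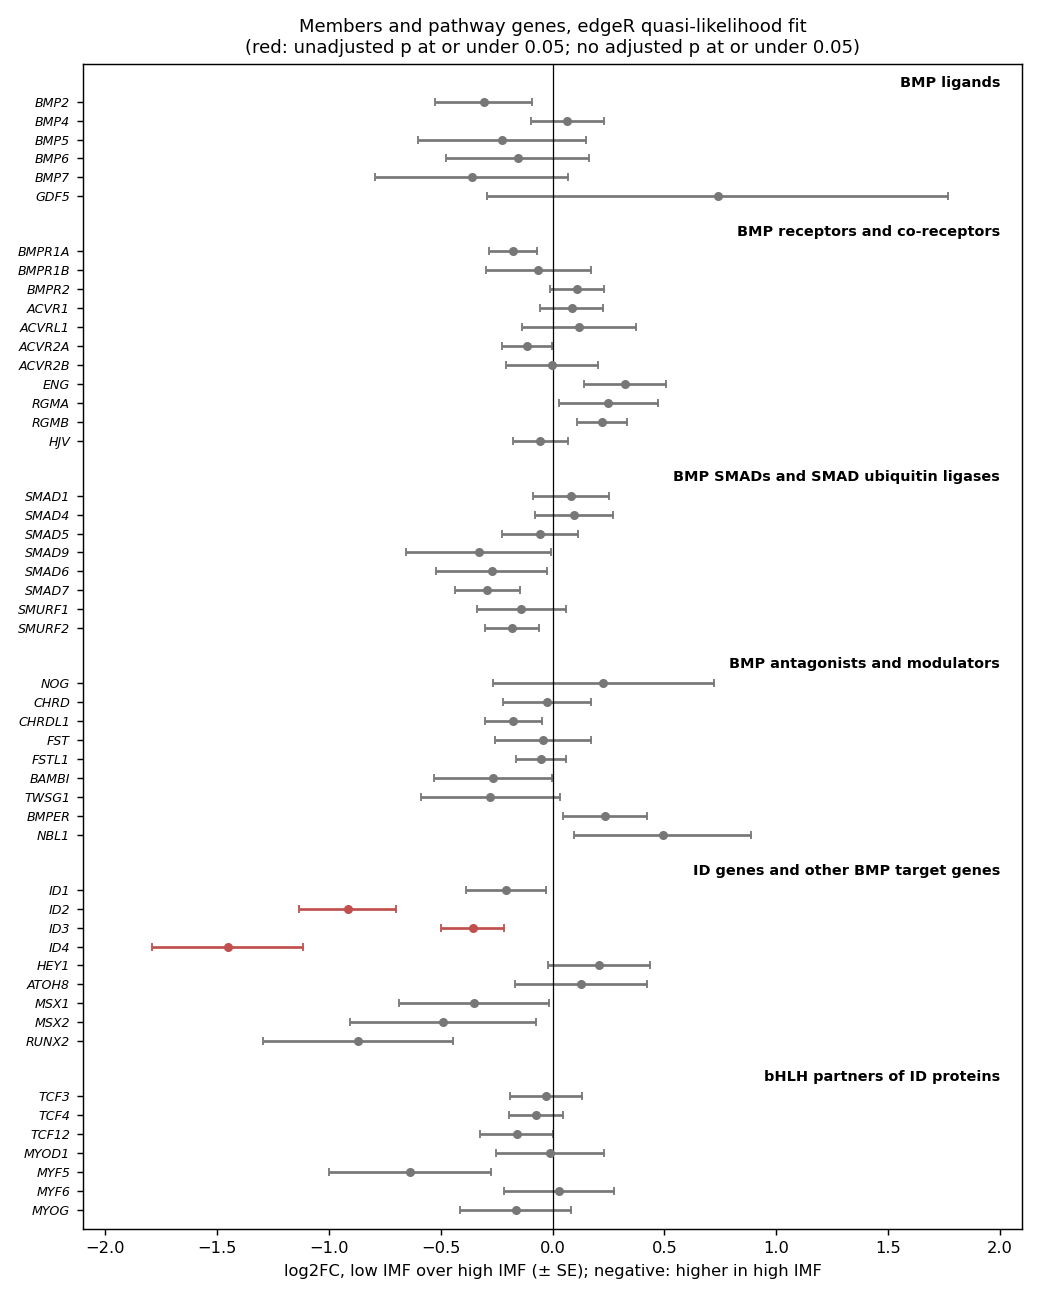
log2FC (low over high IMF, horizontal axis, with SE bars) of the members and the other tested genes of the 6 pathway lists by the quasi-likelihood fit, red where the unadjusted p is 0.05 or less. *ID2*, *ID3* and *ID4* are the 3 red points. *SMAD6* and *SMAD7* are drawn once, among the SMAD genes.

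Other gene lists that differed between the groups or varied with the ID genes are given here, and their part in the results above was not tested. Of 18 immediate early genes, which respond within minutes to stimuli and handling, 17 had an identifier and 16 were tested: 7 were lower in low IMF and 1 higher at an unadjusted p of 0.05 or less, beside 5.04% of all genes lower in low IMF and 10.4% in either direction, and 0 after adjustment. Their median log2FC was -0.49, against -0.01 over all genes. *EGR1* (-1.57 ± 0.62, SE) and *FOS* (-1.19 ± 0.51, SE) were among the 7 and *NR4A3* (1.12 ± 0.37, SE) was the 1. Their summed level was 1219 to 2264 CPM in the high and 1021 to 1626 CPM in the low IMF group, and *JUNB* was listed at 0 in every pig. Over 12 pigs the mean log2 CPM of the 16 genes had an r of 0.80 with *ID2* (permutation p = 0.00201, adjusted over 32 relations 0.0643; rho 0.67) and of 0.58 with *ID4*, against 0.21 with *ID1* and 0.01 with *ID3*. The value for *ID2* was 0.54 without pigs 1 and 6, 0.66 after centring, 0.94 in the high and 0.08 in the low IMF group.

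Endothelial genes had their positive values with *ID1* and *ID3*. Of 12 listed, 10 had an identifier and 9 were tested, *EGFL7* was listed at 0 in every pig, and the sum was 122 to 163 CPM in the high and 125 to 195 CPM in the low IMF group. *CDH5*, which encodes VE-cadherin, was the 1 of 9 at an unadjusted p of 0.05 or less, higher in low IMF at 0.55 ± 0.16 (SE). After centring, their mean log2 CPM had an r of 0.73 with *ID3* (permutation p = 0.00947, adjusted 0.182), 0.66 with *ID1*, -0.65 with *ID4* and -0.41 with *ID2*. Of the 11 macrophage genes tested 1 passed the unadjusted threshold, *AIF1*, which was higher in high IMF, and the sum was 82.2 to 194 CPM in the high and 92.4 to 166 CPM in the low IMF group, with 0 of 12 genes at 0. The mean log2 CPM of the macrophage genes had an r of 0.59 with *ID2*, which was -0.13 without pigs 1 and 6. It was 0.73 after centring (permutation p = 0.0266, adjusted 0.182), 0.98 in the high and -0.07 in the low IMF pigs. Of the 12 genes of fibro-adipogenic stroma, all tested, *PDGFRA* (-0.42 ± 0.17, SE) and *DPP4* (-0.45 ± 0.21, SE) were lower and *GSN* (0.39 ± 0.16, SE) higher in low IMF at an unadjusted p of 0.05 or less, and the sum was 2202 to 3704 CPM in the high and 2972 to 4418 CPM in the low IMF group. Of the 7 satellite cell genes tested, from 8 listed, *CXCR4* (9.13 ± 6.99 CPM in high and 4.57 ± 2.03 CPM in low IMF, SD) was lower and *NCAM1* (log2FC 0.51 ± 0.22, SE) higher in low IMF at that level, and the sum was 44.5 to 66.4 CPM in the high and 42.7 to 70.1 CPM in the low IMF group. After adjustment 0 genes of these lists passed. None of the 32 relations of an ID gene with such a list, a family chosen after the data were seen, passed after adjustment.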

How the data were processed

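RNA of Semimembranosus muscle from 12 pigs was sequenced by the authors from stranded libraries of polyadenylated RNA as pairs of reads, which they trimmed with Trimmomatic, aligned to the pig genome Sscrofa11.1 with HISAT2, processed with StringTie and counted with HTSeq, tools also named in the submitters' processing notes. The authors deposited whole-number counts per Ensembl gene and pig, not normalized. The annotation release and the strand option are not given in the sources used here.

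Groups and pig numbers came from the sample labels. Low against high IMF was tested with edgeR 4.0.16 in R 4.3.3 (filterByExpr, TMM, quasi-likelihood test, Benjamini-Hochberg adjustment over 14262 genes), with DESeq2 1.42.0 and limma-voom (limma 3.58.1) as alternatives. A gene was called at an adjusted p of 0.05 or less. Standard errors were derived from the log2FC and its F statistic. Single genes were also compared by an exact two-sided permutation test over 924 arrangements of the pigs. Correlations used log2 CPM with a prior count of 2 and 100000 permutations, in Python 3.11.15 with numpy 2.4.6, and p-values were adjusted over the 30 pairs. The models were tested on simulated data. The tests took pigs as the units, so their p-values set a difference or an r against the spread between pigs.

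The genes named are the 10 members, the genes of the 6 pathway lists with an unadjusted p of 0.05 or less, the 3 genes most alike to each ID gene, the markers of a list described and genes singled out after their values were seen. The members and lists were chosen with earlier results of these data known. Symbols came from the pig gene name table, which named 14857 genes. BMP8A and BMP8B of the ligand list and 5 fibre, 2 adipocyte, 2 endothelial, 1 satellite cell and 1 immediate early gene had no match. Promoters were read from the RefSeq assembly Sscrofa11.1, matched by symbol for all 10 members, and protein sequences were not used here.

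Slaughter day and sequencing lane of each pig were not used here, so these batches could not be told apart from the rest of the spread.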

Additional observations from a re-analysis of the deposited data

Results flagged for a closer look

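In 20 sets of 6 pigs, 1 for each of the 10 members in each IMF group, no pig's log2 CPM lay so far from the other 5 that its gap passed Dixon's critical value at 95%, which chance passes in about 1 of 20 sets.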

How the results depend on the processing

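Members called at an adjusted p of 0.05 or less numbered 0 under edgeR's quasi-likelihood test with each normalization, filter, the sex covariate, the pigs with matching Y counts and limma-voom, and 2 (*ID2* and *ID4*) under DESeq2's Wald test on the same genes and with its own filtering, where 95 and 101 genes were called against 0 of all genes. Leaving out 1 pig gave 0 to 1 genes called by the quasi-likelihood test and 1 to 2 members by DESeq2. The number of members at an unadjusted p of 0.05 or less was 3, and 2 to 4 over all alternatives. Pathway genes at that level numbered 5 when all genes with at least 1 count were tested, by *SOSTDC1* and *BMP10*, which the filter had removed, and 2 to 6 when 1 pig was left out (6 without pig 12). The log2FC of *BMP4* turned to -0.013 in the pigs with matching Y counts and ran from -0.011 to 0.20 when 1 pig was left out, and that of *BMP6* from -0.34 to 0.074, and the cause was not tested. The other 8 members kept their sign under all alternatives.

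The median r over the 6 pairs of ID genes was -0.46 after centring, -0.47 in the high IMF pigs and -0.21 in the pigs with matching Y counts, against 0.13 as reported and 0.04 to 0.34 when 1 pig was left out. That over the 24 pairs was 0.060 after centring, -0.14 in the high and -0.068 in the low IMF pigs, against 0.24 and 0.11 to 0.29. No paired analysis was made because the groups hold different pigs and the sample labels give no pairing between them. With 55 to 152 counts for *SMAD6* and 53 to 349 for *BMP6*, counting error adds to the spread of these 2 genes.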

Other observations

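The ID genes and the adipocyte markers had r close to 0 over the 12 pigs, which had been picked for intramuscular fat, although for *ID2* the values within groups had opposite signs. Of 12 adipocyte genes listed 10 had an identifier and were tested, and 0 had an unadjusted p of 0.05 or less. Of the 10, 8 were higher in low and 2 higher in high IMF, with a median log2FC of 0.16. *PLIN1*, which encodes a coat protein of lipid droplets, was among the 8, with a log2FC of 0.33 ± 0.49 (SE). The 2 were *ADIPOQ*, which encodes adiponectin, at -0.15 ± 0.54 (SE) and *FABP4* at -0.04 ± 0.30 (SE). The summed level of the 10 genes was 430 to 596 CPM in the high and 262 to 789 CPM in the low IMF group. The mean log2 CPM of the 10 genes had r over 12 pigs of 0.05 with *ID1*, 0.00 with *ID2*, 0.04 with *ID3* and 0.08 with *ID4*, and the smallest permutation p of the 4 was 0.811. For *ID2* r was 0.52 in the high and -0.70 in the low IMF pigs, and the difference between the groups was not tested.

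Muscle fibre genes gave a centred r of 0.58 with *ID1* (permutation p = 0.0235, adjusted over 32 relations 0.182), with 0.76 in the high and 0.69 in the low IMF pigs, and *ID4* had -0.35 after centring. For genes of satellite cells, the stem cells of muscle, the r over 12 pigs was 0.49 with *ID2* and 0.41 with *ID1*. For genes of fibro-adipogenic stroma it was -0.35 to -0.10 with the 4 ID genes, and for genes of smooth muscle and pericytes it was -0.54 with *ID2* and 0.24 with *ID3*. Without pigs 1 and 6 the r of *ID2* was 0.20 with satellite cell genes and -0.12 with smooth muscle and pericyte genes.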
